A study of Mus musculus with 15 samples.

Results

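The genes of the circadian clock were followed in the mouse adrenal gland through suppression by dexamethasone and the first days of recovery. The set was named by symbol and holds 10 genes: the activators Clock and Npas2, the repressors Per2, Per3, Cry1 and Cry2, the nuclear receptors Nr1d1 and Nr1d2, and the output factors Dbp and Tef. Of these, 9 had a probe set annotated to their symbol alone and are reported here, out of 21439 genes measured in that way. The probe set of Per2 carries a second symbol, so its signal cannot be assigned to Per2 and is not given. Dexamethasone is a synthetic glucocorticoid that lowers pituitary ACTH and with it the output of the adrenal cortex.

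The clock is a feedback loop of transcription that runs in most cells with a period of about a day. CLOCK or its relative NPAS2 pairs with the product of Arntl (BMAL1) and binds E-box motifs, where the pair activates the Per and Cry genes, Nr1d1, Nr1d2, Dbp and Tef. PER and CRY proteins gather and shut the pair off, and the products of Nr1d1 and Nr1d2 (REV-ERB alpha and beta) repress Arntl, Npas2 and Clock, so that activator and output transcripts peak at opposite times of the cycle. In the adrenal cortex the clock gates corticosterone release, and glucocorticoids in turn act on clock genes of many tissues, in particular on Per1.

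All arrays came from whole adrenal glands of wild-type C57BL/6J male mice, labelled as 6 weeks old. The control group held 4 arrays from mice before any dexamethasone. The withdrawal group held 3 arrays from mice that had drunk water with dexamethasone for 14 days and were sampled as the drug stopped, and 4 arrays each came from 3 days and 7 days after the drug was removed. Each array is titled a biological replicate, with no statement on pooling, and p-values measure the spread between these arrays. The labels give no clock hour of harvest for any array, so that a shift in hour between groups and an effect of the treatment cannot be told apart. Control mice were sampled earlier in the experiment than the other groups, and treatment and elapsed days also cannot be told apart. The labels give every array the same age despite these days, so equal age at harvest cannot be assumed.

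Levels are log2 values and range from -0.19 to 12.1 over the arrays, with array medians of 1.55 to 1.64, which are taken as the floor. The arrays correlated with the others of their group at a mean of 0.987 to 0.991 over all genes, the lowest being day 3 replicate 1. Adrenal cortex markers were present, with 10 of 10 above the floor in every group, and the 6 kidney markers were all at the floor. The summed level of a list is the log2 of the sum of its unlogged levels, in which the brightest genes weigh most. At withdrawal the summed level of the 10 cortex markers lay at 12.43 to 12.58 against 13.13 to 13.18 in control. Of these, 7 of 10 were lower by the test described below, which called 1.81% of all genes lower and 2.49% higher. The summed level of 10 macrophage markers lay at 11.21 to 11.68 at withdrawal against 9.68 to 9.89 in control, with 9 of 10 higher and Gpnmb alone at the floor in control. At day 3 and day 7 the cortex markers were at 13.02 to 13.15 and 13.01 to 13.14, and the macrophage markers at 10.43 to 11.19 and 9.97 to 11.05. Of the other lists, 4 of 6 zona glomerulosa genes and 1 of 8 measured medulla genes were higher at withdrawal and 1 of 8 endothelium genes lower, while 0 of 8 capsule and stroma genes and 0 of 5 measured adipocyte genes passed. The summed level of the glomerulosa genes was 10.98 to 11.40 at withdrawal and 10.27 to 10.89 in the other groups. In whole glands, fewer cells of a type and less RNA per cell cannot be told apart, and the part of these shifts in the clock gene values was not tested.

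The promoters of members that are described below are shown first, because activator binding at E-boxes and output factor binding at D-boxes link the members to each other. Of the 9 genes, 9 matched the RefSeq promoter table (GRCm38.p6), with 12 start sites in all. Each sequence is the 250 bases before an annotated start, on the gene's own strand, and capitals mark a motif match. Motifs were searched on both strands: the E-box CACGTG, the E-box-like CACGTT, the D-box TTANGTAA, a ROR element and the palindromic glucocorticoid response element. None of these overlapped another here. Over all 32851 windows of that length, 6.02% hold the E-box, 3.85% the E-box-like motif, 2.06% the D-box, 0.49% the ROR element and 0.39% the glucocorticoid response element. Per3 (chr4:151044666-151044915, minus strand) holds 2 D-boxes, the motif bound by DBP and TEF. Cry1 (chr10:85185055-85185304, minus strand) holds an E-box and an E-box-like motif, and Tef (chr15:81802423-81802672, plus strand) holds an E-box in both of its windows, of which the first is printed. Dbp (chr7:45704997-45705246, plus strand) and Npas2 (chr1:39194022-39194271, plus strand), which stood at opposite ends of the array-to-array pattern below, hold none of the motifs in this window.
Per3: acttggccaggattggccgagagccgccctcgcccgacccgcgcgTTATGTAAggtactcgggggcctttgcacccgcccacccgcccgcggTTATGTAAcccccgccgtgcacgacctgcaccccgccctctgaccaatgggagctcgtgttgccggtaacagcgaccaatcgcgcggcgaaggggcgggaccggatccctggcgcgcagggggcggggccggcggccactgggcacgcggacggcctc
Cry1: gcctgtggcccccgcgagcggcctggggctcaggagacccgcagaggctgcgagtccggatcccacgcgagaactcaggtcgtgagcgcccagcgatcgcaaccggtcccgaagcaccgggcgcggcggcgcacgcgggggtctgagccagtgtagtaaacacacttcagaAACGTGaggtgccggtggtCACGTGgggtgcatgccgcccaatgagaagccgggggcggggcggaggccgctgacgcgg
Tef: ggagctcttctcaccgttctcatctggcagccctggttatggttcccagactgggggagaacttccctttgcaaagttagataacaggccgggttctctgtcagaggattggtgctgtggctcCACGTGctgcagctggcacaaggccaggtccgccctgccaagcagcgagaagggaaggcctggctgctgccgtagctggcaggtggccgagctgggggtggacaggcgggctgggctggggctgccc
Dbp: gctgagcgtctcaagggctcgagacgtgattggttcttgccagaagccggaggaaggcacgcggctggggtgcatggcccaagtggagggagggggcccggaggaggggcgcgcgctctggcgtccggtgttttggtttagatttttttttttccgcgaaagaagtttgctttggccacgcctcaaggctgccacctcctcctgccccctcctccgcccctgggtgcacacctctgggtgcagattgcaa
Npas2: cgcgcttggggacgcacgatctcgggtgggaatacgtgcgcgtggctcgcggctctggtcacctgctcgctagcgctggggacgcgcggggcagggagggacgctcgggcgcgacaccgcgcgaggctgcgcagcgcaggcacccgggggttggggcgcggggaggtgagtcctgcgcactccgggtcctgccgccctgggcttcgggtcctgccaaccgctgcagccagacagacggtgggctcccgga

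The remaining members, whose windows are not printed, gave few matches. Cry2 and Nr1d1 each hold 1 E-box-like motif, and the windows of Nr1d2 and of Clock, with its 3 starts, hold none. A match is a run of letters and no evidence of binding, and the lack of one speaks only of this window.

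Npas2, an activator that can stand in for CLOCK, varied most of the members between arrays of a group. In control, its probe set 17212087 read 4.94, 2.03, 4.31 and 4.47 in replicates 1 to 4, a mean of 3.94 ± 1.30 (SD, n = 4). Withdrawal arrays read 2.92, 2.84 and 3.21, a mean of 2.99 ± 0.20 (n = 3). Control replicate 2 lay below every withdrawal array and the other controls lay above them, so the groups overlap through 1 array. Day 3 arrays read 2.78, 3.85, 3.25 and 2.65 and day 7 arrays 3.53, 3.66, 1.62 and 2.27, with day 7 replicate 3 at the floor.

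Withdrawal differed from control in Npas2 by -0.95 ± 0.60 log2 (SE), with a 95% interval from -2.22 to 0.33 and an adjusted p of 0.467 (limma, Benjamini-Hochberg over all genes). Without control replicate 2 that difference was -1.58 (limma, adjusted p = 0.0756). That array, the lowest control, was picked from these values, so leaving it out necessarily enlarges the difference. The same holds wherever it is left out below, and leaving out a control on the far side would shrink the difference. Day 7 differed from control by -1.17 ± 0.55, and by -1.81 without the same control array. Neither passed the threshold, nor did the day 3 difference from control of -0.81 ± 0.55.

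Clock, whose product is the main partner of BMAL1, spanned a far narrower range. Probe set 17448960 read 8.0, 7.72, 7.91 and 8.21 in control and 7.54, 7.60 and 7.76 at withdrawal. The groups overlap only in that control replicate 2 lies under withdrawal replicate 3. Day 3 arrays read 7.35, 7.81, 7.77 and 7.79, and day 7 arrays 7.84, 7.75, 7.57 and 7.54. The mean of control was 7.96 ± 0.20, and the means of the other groups were 7.63 ± 0.12, 7.68 ± 0.22 and 7.67 ± 0.14. Differences from control were -0.33 ± 0.14 at withdrawal (adjusted p = 0.224), -0.28 ± 0.13 at day 3 (0.468) and -0.29 ± 0.13 at day 7 (0.813), in limma.

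Per3, a repressor of the PER family, was close to uniform at withdrawal and scattered elsewhere. Probe set 17433328 read 3.70, 3.70 and 3.74 in the withdrawal arrays, a mean of 3.72 ± 0.02. Control arrays read 3.29, 3.52, 2.76 and 2.18, all lower, with a mean of 2.94 ± 0.60. Day 3 arrays read 3.27, 2.64, 3.29 and 3.10, also all below withdrawal, while the day 7 arrays at 3.00, 3.15, 3.55 and 3.96 lay on both sides. Withdrawal differed from control by 0.78 ± 0.28 log2 or 1.71-fold, with a limma adjusted p of 0.158, although the groups did not overlap. From withdrawal to day 3 the difference was -0.64 ± 0.28 (adjusted p = 0.323).

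Cry1 and Cry2 encode the cryptochromes, the repressors that act with PER proteins. Cry1 (probe set 17243644) read 4.85, 4.12, 4.09 and 4.17 in control, 4.18, 4.73 and 5.13 at withdrawal, 4.23, 4.50, 3.83 and 4.17 at day 3 and 3.68, 3.55, 4.50 and 4.41 at day 7. Its means of 4.31 ± 0.36, 4.68 ± 0.47, 4.18 ± 0.28 and 4.04 ± 0.49 overlapped in every pair of groups. The largest of its differences was between day 7 and withdrawal, -0.65 ± 0.27 (limma, adjusted p = 0.303).

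Cry2 (probe set 17388389) showed the smallest range of group means among the repressors, at 4.95 ± 0.31, 5.10 ± 0.17, 5.12 ± 0.36 and 5.14 ± 0.33 from control to day 7. Its arrays lay between 4.66 in control and 5.61 at day 3. The 95% intervals of its differences reached from -0.31 to 0.61 for withdrawal against control and from -0.24 to 0.62 for day 7 against control.

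Nr1d1 and Nr1d2, the REV-ERB repressors of the activator limb, did not run in parallel. Nr1d2 (probe set 17303625) read 5.68, 6.42, 5.79 and 5.55 in control, and control replicate 2 was again the array apart. Withdrawal arrays read 6.17, 6.45 and 6.35, day 3 arrays 6.54, 6.14, 6.29 and 6.24, and day 7 arrays 6.13, 6.52, 6.95 and 6.72. Each later group thus overlapped control through 1 control array. Differences from control were 0.46 ± 0.20 at withdrawal (limma, adjusted p = 0.257), 0.44 ± 0.19 at day 3 (0.444) and 0.72 ± 0.19 at day 7 (0.554). Without control replicate 2, the highest control, they were necessarily larger, at 0.65, 0.63 and 0.91 (limma, adjusted p of 0.0593, 0.164 and 0.101).

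Nr1d1 (probe set 17268884) read 8.19, 7.78, 8.02 and 7.61 in control and 7.72, 7.85 and 7.27 at withdrawal. Day 3 arrays read 7.22, 7.59, 7.97 and 7.70, and day 7 arrays 8.22, 8.35, 8.36 and 7.72. The day 7 mean of 8.16 ± 0.30 stood above withdrawal at 7.61 ± 0.30 and day 3 at 7.62 ± 0.31. Those differences of 0.55 ± 0.20 and 0.54 ± 0.19 did not pass (limma, adjusted p = 0.222 and 0.534), and day 7 replicate 4 overlapped both groups. In the RefSeq table Nr1d1 overlaps the thyroid hormone receptor gene Thra, and among the other members Per3 overlaps Uts2, Dbp overlaps Sphk2, Clock overlaps Gm7467 and Ube2n-ps1, Cry2 overlaps D930015M05Rik and Npas2 overlaps 3 pseudogenes. The part of these overlaps in the probe sets' signals was not tested.

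Dbp and Tef encode PAR bZIP factors, which bind D-boxes and pass the rhythm on to other genes. Dbp (probe set 17477979) read 5.36, 6.13, 5.33 and 5.45 in control, where replicate 2 was the high array. Withdrawal arrays read 6.25, 6.16 and 5.81, day 3 arrays 6.31, 5.47, 5.83 and 5.69, and day 7 arrays 6.03, 5.91, 6.40 and 6.75. Day 7 differed from control by 0.71 ± 0.22 log2 or 1.63-fold (95% interval from 0.23 to 1.18), which did not pass over all genes (limma, adjusted p = 0.702). Withdrawal differed from control by 0.51 ± 0.24 (adjusted p = 0.300).

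Tef came closest to the threshold. Probe set 17313376 read 3.09, 3.85, 3.62 and 3.45 in control and 3.90, 4.38 and 4.07 at withdrawal, with no overlap. Day 3 arrays read 3.87, 3.56, 3.43 and 3.51, all below withdrawal, and day 7 arrays read 3.55, 3.69, 4.06 and 4.06. Withdrawal differed from control by 0.61 ± 0.18 log2 or 1.53-fold (limma, adjusted p = 0.0793), and day 3 from withdrawal by -0.53 ± 0.18 (0.182). The first passed without control replicate 2, at 0.73 (limma, adjusted p = 0.0435). That array, again picked from these values, is the highest control, so leaving it out necessarily enlarges the difference. A further Tef probe set, 17319524, had a mean of 1.16 over all arrays, at the floor, and differed by -0.08 ± 0.10 between withdrawal and control.

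**Figure D1:**
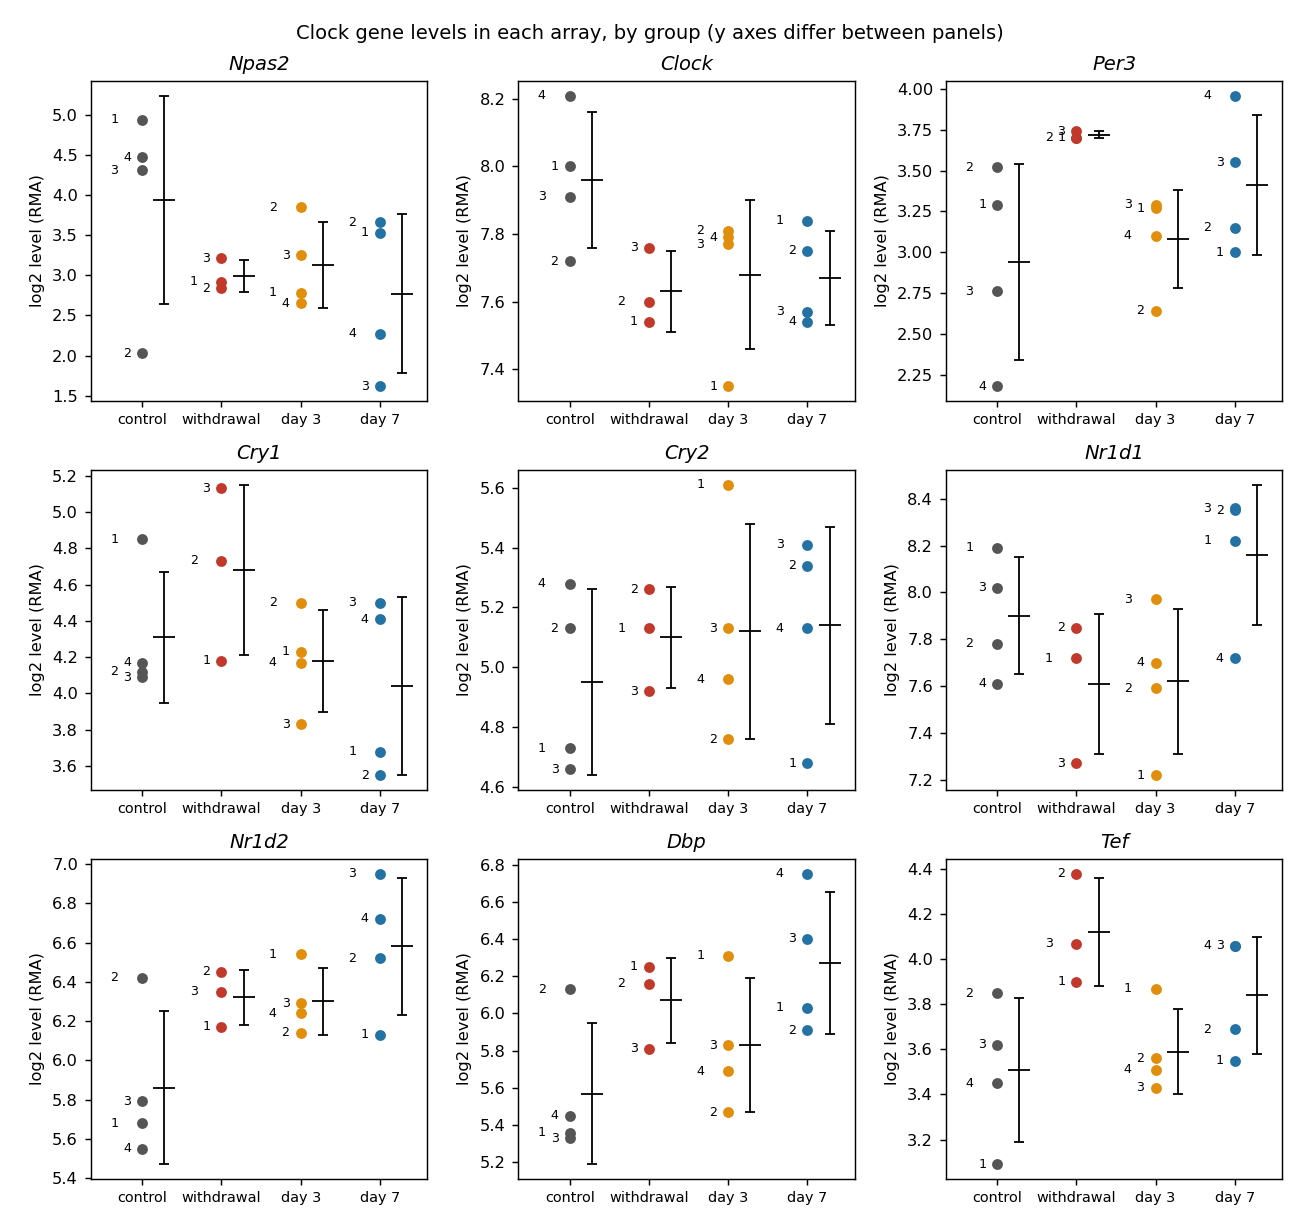
Log2 level (RMA) of the 9 measured clock genes in every array, by group, with replicate numbers beside the points and the group mean ± SD to their right; the y axes differ between panels. Control replicate 2 is the lowest control for Npas2 and Clock and the highest for Per3, Nr1d2, Dbp and Tef, and the 3 withdrawal arrays of Per3 and Tef lie above all 4 controls.

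Counted over the set, 0 of 9 clock genes passed at withdrawal against control, where limma called 2.49% of all genes higher and 1.81% lower. At an unadjusted p under 0.05 there were 3 higher (Per3, Nr1d2, Tef) and 1 lower (Clock), against 17.0% of all genes in either direction. Per3 and Tef did not overlap control, both higher, where 8.15% of all genes lay higher and 6.94% lower without overlap. The median clock gene differed by 0.37 log2, beside -0.01 over all genes, with a range from -0.95 for Npas2 to 0.78 for Per3.

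From withdrawal to day 3, again 0 of 9 passed, beside 1.37% of all genes called higher and 0.886% lower. Per3 and Tef had an unadjusted p under 0.05, both lower and without overlap, where 13.9% of all genes had such a p 6.39% lay higher and 5.73% lower without overlap. The median clock gene differed by -0.02. From withdrawal to day 7, 0 of 9 passed beside 0.98% of all genes called higher and 0.905% lower. Here Nr1d1 was higher and Cry1 lower at an unadjusted p under 0.05, against 13.5% of all genes, and the median was 0.04.

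Against control, the recovery groups gave 0 of 9 at day 3 and 0 of 9 at day 7, beside 0.0886% of all genes called higher and 0.042% lower at day 3, and 0.014% and 0.00466% at day 7. Unadjusted, Nr1d2 was higher and Clock lower at day 3 (2153 of 21439 genes in either direction), and Nr1d2 and Dbp higher and Clock lower at day 7 (5.9% of all genes). Between day 7 and day 3, 0 of 9 clock genes and 0% of all genes passed, and Nr1d1 alone had an unadjusted p under 0.05, where 7.1% of all genes did. The median clock gene differed by 0.08 at day 3 and 0.26 at day 7 from control, and by 0.25 between the recovery days. These comparisons share groups and are not independent of each other.

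**Figure D2:**
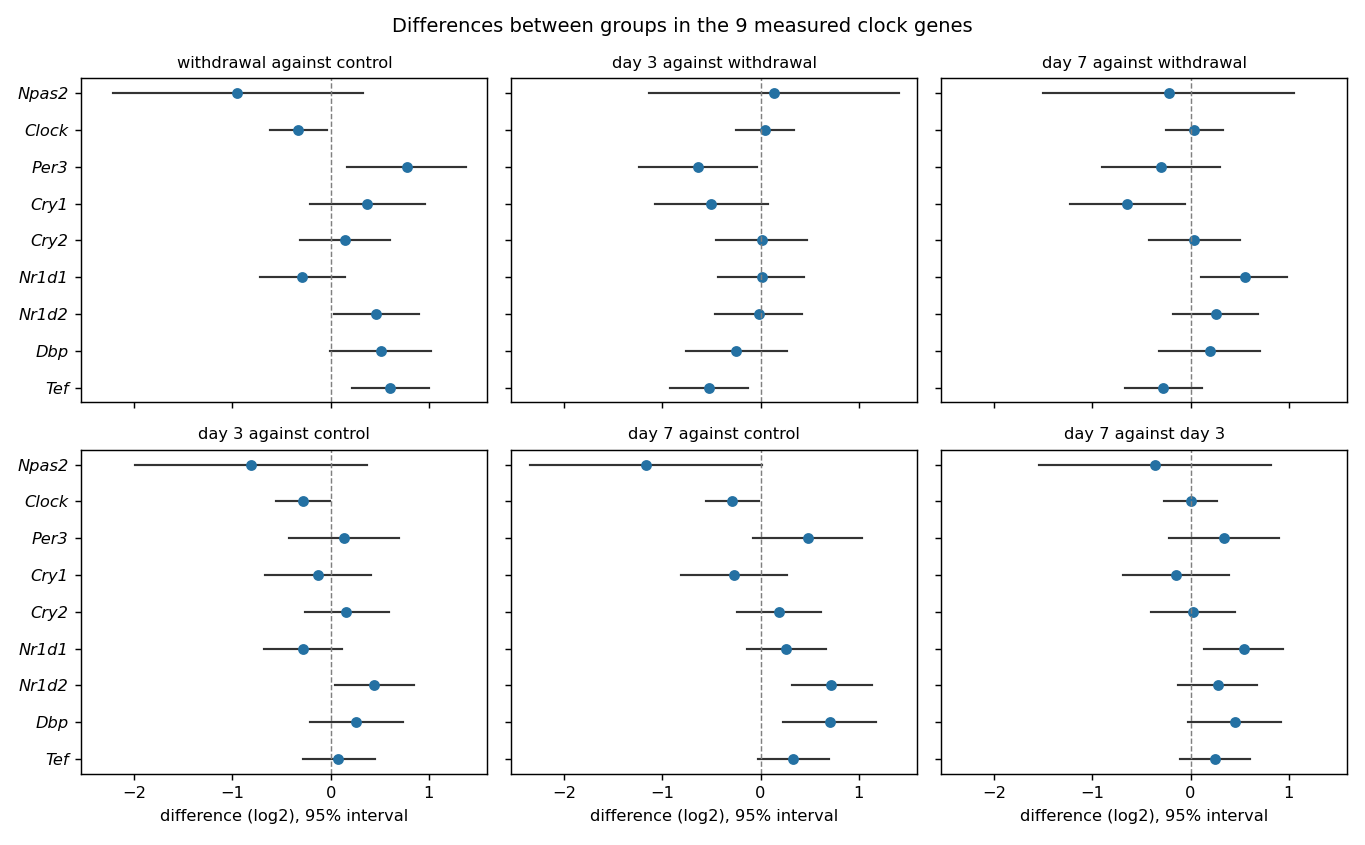
Difference in log2 level (x axis) for each measured clock gene in the 6 comparisons; points are limma estimates and lines their 95% intervals, not adjusted for the number of genes. The intervals of Npas2 are the widest, from -2.22 to 0.33 at withdrawal against control, and 0 of 9 genes passed in any comparison after adjustment.

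The spread between arrays of a group was wide for most of the set. The SD within groups, pooled over the 4 groups, was 0.90 log2 for Npas2, which exceeds that of 99.6% of the 10719 genes above the median level. Per3 followed with 0.42 (94.2%), Cry1 with 0.40 (93.4%) and Dbp with 0.35 (88.8%). Cry2 had 0.31, Nr1d1 and Nr1d2 0.29 each, and Tef 0.26. Clock was the exception at 0.18, below the median of 0.19 of those genes. The median clock gene stood at the 85.0th percentile of all 21439 genes. Of the total variation of Npas2 over the 15 arrays, 74.5% lay within groups, and for Cry2 this was 92.4%. Nr1d2, at 46.8%, and Tef, at 48.9%, had the smallest shares within groups. Nr1d1 had 54.8%, Dbp 55.1%, Clock 57.4%, Per3 60.2% and Cry1 69.9%. The median of all genes was 75.1%, and only Cry2 among the members lay above it. Arntl, the partner of both activators and no member of the set, had a within-group SD of 0.82.

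**Figure D3:**
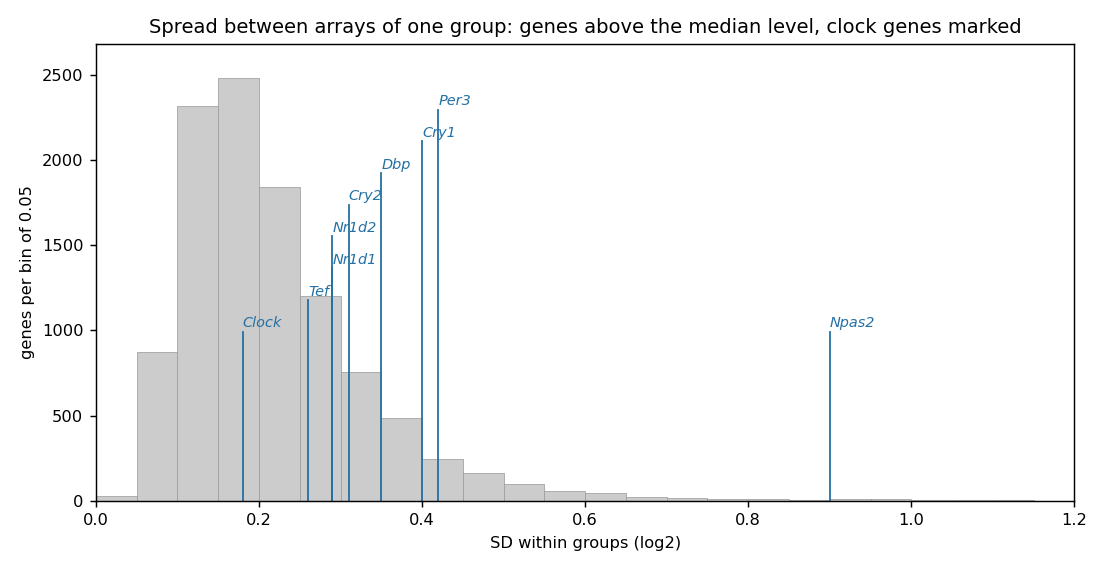
Number of genes (y axis, bins of 0.05) by SD within groups in log2 units (x axis, drawn up to 1.2) for the 10719 genes above the median level, with blue lines at the clock genes. Clock lies near the middle of the distribution at 0.18, 7 members lie in its upper part between 0.26 and 0.42, and Npas2 lies far out at 0.90.

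In several arrays these deviations were shared between some of the clock genes. This did not hold everywhere, as day 3 replicate 4 deviated by -0.48 for Npas2 but by 0.22 for Arntl and 0.11 for Clock. Control replicate 2 deviated from its group mean by -1.90 for Npas2, -1.54 for Arntl and -0.24 for Clock, and by 0.56 for both Dbp and Nr1d2 and 0.58 for Per3. Day 3 replicate 1 deviated by -1.32 for Arntl, -0.35 for Npas2 and -0.33 for Clock, and by 0.49 for Dbp and 0.50 for Cry2. Day 7 replicate 3 was low in Arntl (-0.84) and Npas2 (-1.15) and high in Nr1d2 (0.37), and day 7 replicates 1 and 2 were high in Npas2 (0.76 and 0.89) and low in Dbp (-0.24 and -0.36). In the 3 withdrawal arrays Arntl lay within 0.07 of its mean and Npas2 between -0.15 and 0.22, while Cry1 deviated by -0.50, 0.05 and 0.45 and Nr1d1 by 0.11, 0.24 and -0.34.

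**Figure D4:**
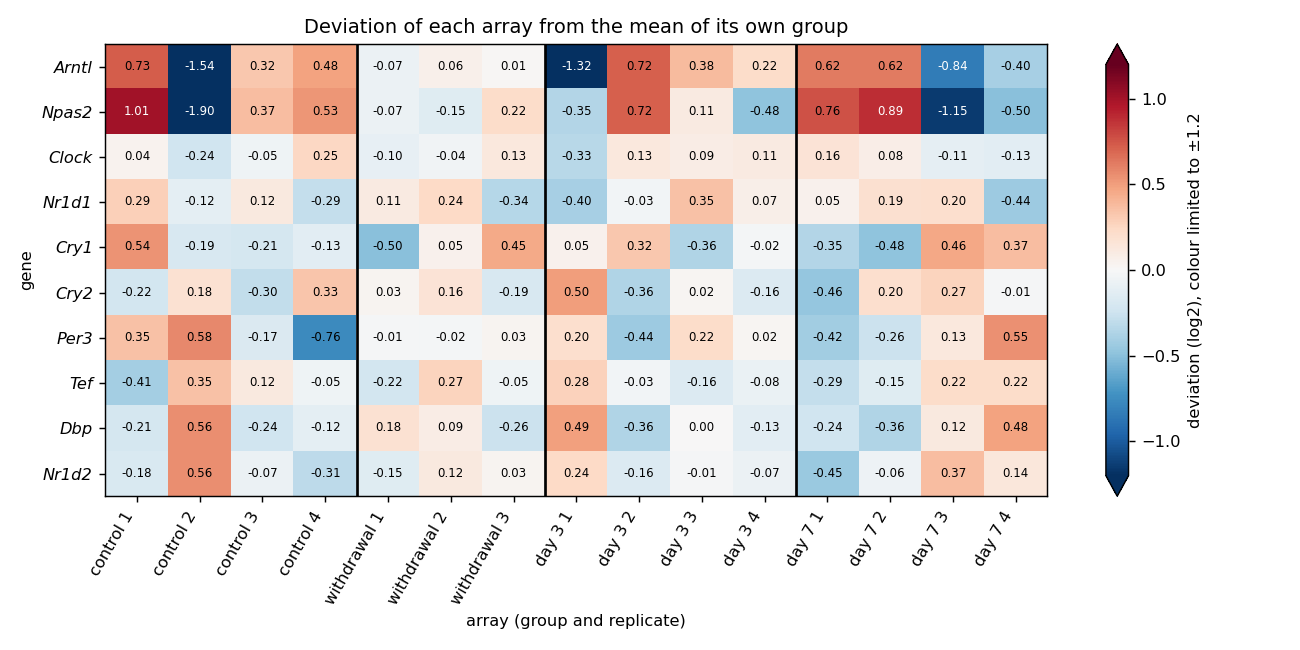
Deviation of each array (columns, by group and replicate) from the mean of its own group in log2 units (colour and printed value) for the measured clock genes and Arntl (rows). In control replicate 2 and day 3 replicate 1 Arntl, Npas2 and Clock are all negative while Per3, Tef, Dbp and Nr1d2 are all positive, and the withdrawal columns are pale for Arntl and Npas2.

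The deviations from group means were correlated over the 15 arrays for all 45 pairs among the 9 members and Arntl, with an exact permutation test that shuffles arrays within groups. The deviations of an array share its RNA and its scaling. By Pearson's r, 10 pairs had an adjusted p under 0.05, of which 3 were positive and 7 negative, and the same 10 had one by Spearman's rho. How often pairs of other genes reach such coefficients in these arrays was not measured. Genes outside the clock, picked as extremes, reached similar sizes with Dbp and Npas2, as given below. Npas2 and Arntl had r = 0.88 (exact permutation p = 0.00113, adjusted 0.025) and rho = 0.91 (0.00116, adjusted 0.0283). Without the 2 arrays farthest from the median of Npas2, r was 0.76. Clock and Arntl had r = 0.86 (exact p = 0.00408, adjusted 0.025) and rho = 0.72 (exact p = 0.0102, adjusted 0.0469), with r = 0.69 without the 2 farthest arrays. Nr1d2 and Tef had r = 0.81 (exact p = 0.00281, adjusted 0.025) and rho = 0.78 (exact p = 0.00315, adjusted 0.0283), and r = 0.74 without the 2 farthest.

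The 7 negative pairs each set an activator against an output or REV-ERB gene. Dbp had r = -0.88 with Arntl (rho = -0.80), -0.83 with Clock (rho = -0.75) and -0.79 with Npas2 (rho = -0.80), with exact permutation p of 0.00526, 0.00246 and 0.00807 for r and 0.00275, 0.00854 and 0.00299 for rho. The adjusted values for r were 0.0263, 0.025 and 0.0363. Without the 2 arrays farthest in Dbp these were -0.75, -0.69 and -0.72. Nr1d2 had r = -0.87 with Arntl, -0.86 with Npas2 and -0.77 with Clock (exact p = 0.0014, 0.00445 and 0.00228, each adjusted 0.025), with rho of -0.83, -0.80 and -0.72 (exact p = 0.00219, 0.0067 and 0.00952), and -0.74, -0.67 and -0.72 without the farthest arrays. Tef and Arntl had r = -0.77 (exact p = 0.0042, adjusted 0.025) and rho = -0.71 (exact p = 0.0104), and -0.69 without the farthest arrays. Leaving out any 1 array kept the 10 coefficients on their side of 0, the nearest to 0 being -0.71 for Dbp with Npas2 and for Nr1d2 with Clock.

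No pair with Nr1d1, Cry1, Per3 or Cry2 passed after adjustment, and their coefficients differed in size. Nr1d1 had an r of -0.17 with Nr1d2 (exact permutation p = 0.583, adjusted 0.69; rho = -0.15, exact p = 0.636) and -0.40 with Dbp (exact p = 0.192, adjusted 0.297; rho = -0.20, exact p = 0.518), and 0.02 with Dbp without the 2 farthest arrays. Cry1 had r of 0.03 with Dbp (exact p = 0.912; rho = 0.05, exact p = 0.868) and -0.09 with Npas2 (exact p = 0.765; rho = -0.15, exact p = 0.631). Per3 with Dbp, at r = 0.68 (exact p = 0.0201; rho = 0.63, exact p = 0.0285), had an adjusted p of 0.0586. Its r was 0.71 with Nr1d2 (exact p = 0.0315, adjusted 0.0788; rho = 0.66, exact p = 0.0271) and -0.70 with Clock (exact p = 0.0163, adjusted 0.0564; rho = -0.66, exact p = 0.0271), and -0.62 with Npas2 and -0.61 with Arntl (exact p = 0.0937 and 0.0607; rho = -0.57 and -0.56, exact p = 0.0875 and 0.0844). Without the 2 arrays farthest in Per3 these were 0.69 with Dbp, 0.55 with Nr1d2, -0.51 with Clock, -0.48 with Npas2 and -0.49 with Arntl. Cry2 had an r of -0.61 with Arntl (exact p = 0.06, adjusted 0.132; rho = -0.53, exact p = 0.0939), 0.59 with Dbp (exact p = 0.0616, adjusted 0.132; rho = 0.56, exact p = 0.0642) and 0.55 with Nr1d2 (exact p = 0.0693, adjusted 0.142; rho = 0.53, exact p = 0.0872), and -0.43, 0.44 and 0.35 without the 2 farthest arrays. The median size of r over the 36 pairs of members was 0.47, with no value for pairs of other genes to set beside it.

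**Figure D5:**
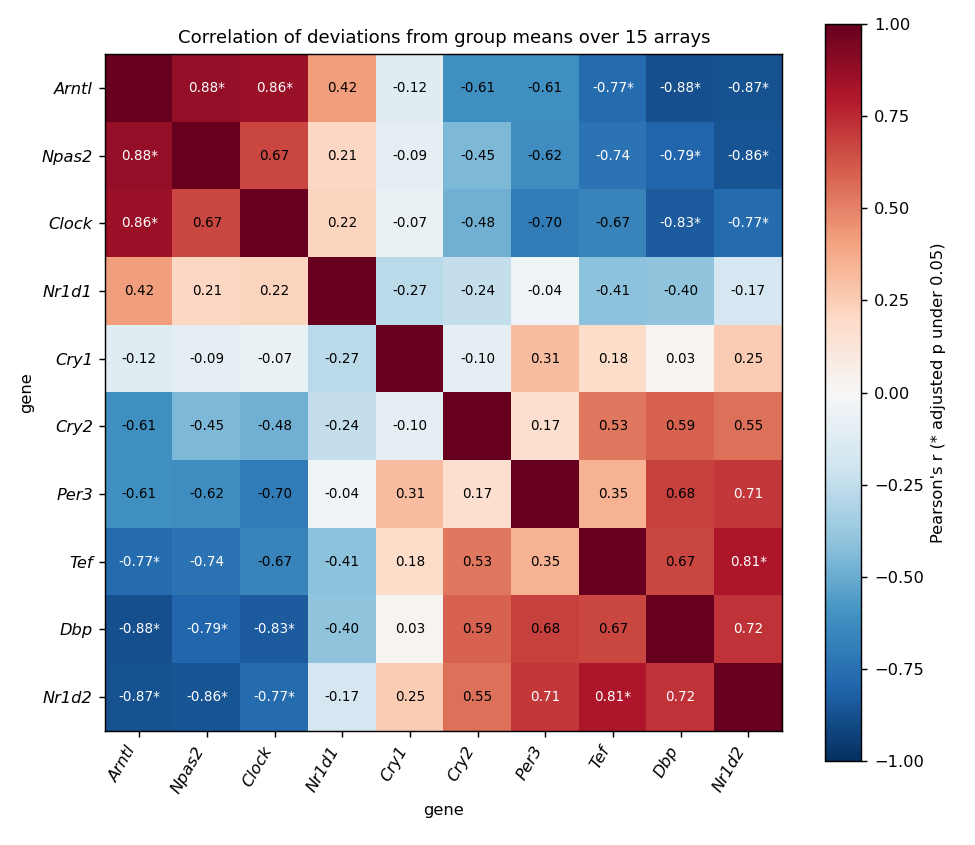
Pearson's r between deviations from group means over 15 arrays for the measured clock genes and Arntl (rows and columns), with an asterisk where the exact permutation p adjusted over 45 pairs is under 0.05. Coefficients are positive among Arntl, Npas2 and Clock and among Tef, Dbp and Nr1d2, and negative between these 2 sets, down to -0.88. Clock with Npas2, and Dbp with Tef and with Nr1d2, carry no asterisk. Per3 has similar coefficients with Nr1d2 (0.71) and Dbp (0.68), also without an asterisk.

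Other measured features stood apart in some of these arrays, and not alike from array to array. Immediate early genes respond to stimuli and handling within minutes. The summed level of 18 of them was 10.56 in control replicate 2 against 9.80 to 10.12 in the other controls. It was 9.92 in day 3 replicate 2 against 10.45 to 10.76 in the rest of day 3. The summed level of 8 measured medulla genes was 12.19 in control replicate 2 against 12.40 to 12.60 in the other controls. Its cortex markers, at 13.16, lay among the other controls at 13.13 to 13.18. Day 3 replicate 1 lay inside the range of its group for immediate early genes (10.45) and medulla genes (12.52). It was the lowest day 3 array for capsule and stroma genes, at 9.96 against 10.06 to 10.37. For macrophage genes it was also the lowest, at 10.43 against 10.46 to 11.19. For glomerulosa genes it was the highest, at 10.71 against 10.27 to 10.54. Day 7 replicate 3 had the highest medulla level of day 7, at 12.75, and the highest macrophage level, at 11.05 against 9.97 to 10.45. Its immediate early genes, at 10.89, lay among the other day 7 arrays at 10.65 to 10.91. The part of any of these in the clock gene deviations was not tested.

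Genes whose level over the 15 arrays was most like that of Dbp, out of 10277 named genes above the median level, were Tspan4 (r = 0.88), Ciart (0.88), Sik1 (0.88), Bhlhe41 (0.85) and Fads3 (0.84). Ciart encodes the repressor CHRONO, Bhlhe41 the repressor DEC2, and Tspan4 a tetraspanin. Most opposed to Dbp was Arntl, at -0.88, followed by Dapk2, Clpx, Man1a and Sel1l at -0.79 each. For Npas2 the genes most alike were Arntl (0.90), Ermp1 (0.85), Ahcyl2, Anp32a and Nmnat1 (0.82 each), and the most opposed were Fads3 (-0.91), Tspan4 (-0.86), Acvr1 (-0.84), Hecw2 and Gdf10 (-0.82 each). With group means removed, Arntl and Tspan4 remained in these lists of 5 for both genes, Arntl at 0.88 with Npas2 and -0.88 with Dbp and Tspan4 at -0.85 and 0.89. Fads3, Acvr1 and Gdf10 also stayed for Npas2. Ciart, Sik1, Bhlhe41 and Fads3 left the list for Dbp, where Hddc2 and Npc1 (0.91 each), Hsdl2 and Cep112 (0.89 each) took their place. Rab6b (-0.90), Igsf11 (-0.89), Nt5c2 and Ugp2 (-0.88 each) then ranked as more opposed to Dbp than Arntl. For Npas2 the new genes were Npr1 (0.93), Fam171a1 and Incenp (0.90 each), Bhlhb9 (0.87) and Gpr63 (-0.85). These coefficients were picked as extremes and are given as a description without a test.

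Among 12 further core clock genes listed, 11 were measured, and Hlf was the one that passed at withdrawal. Hlf, the third PAR bZIP factor beside Dbp and Tef (probe set 17267702), had a mean of 5.36 ± 0.26 in control and 6.09 ± 0.07 at withdrawal, 1.66-fold higher (0.73 ± 0.13 log2; limma, adjusted p = 0.00633). It fell to 5.48 ± 0.08 at day 3 (-0.61 ± 0.13; limma, adjusted p = 0.0273) and 5.29 ± 0.19 at day 7 (-0.81 ± 0.13, adjusted p = 0.00658). Its withdrawal arrays did not overlap any other group. Without overlap, 8.15% of all genes lay higher at withdrawal than in control, and 5.73% lower at day 3 than at withdrawal. That share is not given for day 7. The fall to day 3 passed in 1 of 7 fits without 1 array, with an adjusted p of up to 0.094 without withdrawal replicate 3, and with a replicate block it was 0.0934. The other 2 calls passed in all 7 and 7 such fits. At withdrawal cortex markers were also lower and macrophage markers higher, as given above, and their part in this difference was not tested.

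Rorb, an activator of the same elements that REV-ERBs repress, fell from 2.10 ± 0.14 at withdrawal to 1.46 ± 0.20 at day 7 (-0.64 ± 0.15; limma, adjusted p = 0.04999), from a level near the floor to the floor. That call was lost in 6 of 7 fits without 1 array, with an adjusted p of up to 0.155 without withdrawal replicate 2, and under 7 other alternatives, with adjusted p from 0.051 to 0.0979. Over the 11 genes, 1 was called higher and 0 lower at withdrawal against control, beside 2.49% and 1.81% of all genes. Against withdrawal, 1 was called lower at day 3 (0.886% of all genes) and 2 at day 7 (0.905%). In the other 3 comparisons 0 were called. At an unadjusted p under 0.05 there were 5 higher and 1 lower at withdrawal against control (17.0% of all genes), 1 higher and 2 lower at day 3 against withdrawal (13.9%) and 0 higher and 3 lower at day 7 against withdrawal (13.5%). The other comparisons held 0 at day 3 against control (2153 of 21439 genes), 3 at day 7 against control (5.9%) and 1 between the recovery days (7.1%).

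The rest of the core did not pass. Arntl had means of 5.77 ± 1.04, 5.09 ± 0.07, 4.97 ± 0.91 and 4.54 ± 0.74 from control to day 7, and differed from control by -1.23 ± 0.50 at day 7 (limma, adjusted p = 0.787) and by -0.68 ± 0.54 at withdrawal (0.587). Without control replicate 2, the lowest control, these necessarily became larger, at -1.75 and -1.19. Per1, a glucocorticoid-responsive member of the loop, differed by 0.84 ± 0.32 at withdrawal against control (adjusted p = 0.189), where the groups did not overlap. Nfil3, which competes with PAR bZIP factors at D-boxes, differed by 0.77 ± 0.23 (0.0815), and Ciart by 0.92 ± 0.47 (0.341). Of the 11 genes, 4 (Hlf, Nfil3, Per1 and Bhlhe40) lay higher at withdrawal than in control without overlap, beside 8.15% of all genes. Bhlhe41 differed by 0.63 ± 0.13 between day 7 and control (adjusted p = 0.393). Bhlhe40, Rora and Timeless did not pass in any comparison, and Arntl2 lay at the floor.

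Kinases, ubiquitin ligases and other modifiers of clock proteins (14 listed, 11 measured) gave 0 calls in any of the 6 comparisons in limma, with 1 gene at an unadjusted p under 0.05 at withdrawal against control, where 17.0% of all genes had one. Their median difference there was 0.02 log2. Of 8 broadly rhythmic output genes, 7 were measured and 0 were called in any comparison, with 3 at an unadjusted p under 0.05 at withdrawal against control (17.0% of all genes) and a median of 0.30. The 11 genes of the glucocorticoid receptor list, Nr3c1 and its targets, also gave 0 calls. At withdrawal against control 6 had an unadjusted limma p under 0.05, all higher (17.0% of all genes), and the median was 0.28. The lists share genes, such as Per1, which is counted here and among the further core clock genes. Immediate early genes gave 4 of 18 higher at withdrawal against control, where 2.49% of all genes were called higher. These were Atf3 by 1.72 ± 0.30, Klf4 by 1.07 ± 0.25, Klf2 by 0.66 ± 0.13 and Klf6 by 0.56 ± 0.13 (limma, adjusted p = 0.00465, 0.0226, 0.00864 and 0.029). The control and withdrawal arrays of Klf6 overlapped. Klf2 fell again by 0.58 ± 0.13 at day 3 (limma, adjusted p = 0.0271), where 0.886% of all genes were called lower. The Klf6 call was lost in 5 of 7 fits without 1 array and the Klf4 call in 3 of 7, with adjusted p of up to 0.125 and 0.0893, and the fall of Klf2 in 6 of 7, with up to 0.114.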

How the data were processed

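RNA from 15 adrenal samples was hybridised to 1-colour Affymetrix arrays with biotin-labelled targets, per the labels' protocols. What the authors deposited are log2 levels, and the submitters' processing notes name RMA and the oligo package. Versions, annotation settings and filters: not given in the sources used here. Of 32736 probe sets, 22399 carry 1 gene symbol, 1607 several and 8730 none, and only the first were used. Entrez identifiers matched RefSeq (GRCm38.p6) for 22261, with 0 symbols changed. For 807 genes with several probe sets the one with the highest mean stands for the gene, which left 21439 genes. Differences were fitted with limma 3.58.1 in R 4.3.3 (lmFit, eBayes) in 1 model of 4 groups over all genes, adjusted by Benjamini-Hochberg with a threshold of 0.05. Intervals are limma's per gene. Correlations of deviations enumerate all 82944 permutations within groups in numpy 2.4.6, two-sided, with 1.21e-05 the smallest p they can give, adjusted over 45 pairs; this test was added after the values were seen. The fit was tested on simulated data with each gene's own spread. Depending on the comparison, it recovered 26.9% to 37.3% of changes of 0.5 log2 and 76.1% to 88.1% of changes of 1 log2. Of its calls, 2.6% to 7.4% were false. A count of 0 clock genes called therefore does not show that they did not change. The number of arrays limits the precision.

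The members and 13 other gene lists were chosen with earlier results of these data known. All members are named, with all measured further core clock genes, members of the clock-related lists that passed (up to 6 a list), and the 5 genes most like and most opposed to Dbp and Npas2, without predicted genes and clone names. Same-numbered arrays were compared over 21 pairs, whose deviations correlated between -0.138 and 0.06. These values gave no sign of pairing by number, but cannot exclude it, and the labels state none. The alternatives are named in the closing section.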

Additional observations from a re-analysis of the deposited data

Results flagged for a closer look

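In 60 groups of 4 arrays (20 measured clock genes in 3 groups each), 5 held an array whose gap to its nearest neighbour was above Dixon's critical share of the group's range. Chance marks about 1 in 20 groups, and the genes are not independent of each other. Cry1 in control replicate 1 stood apart at 4.85, high among the controls. Dbp and Ciart were apart in control replicate 2 at 6.13 and 3.18, high among the controls. Clock was low at 7.35 in day 3 replicate 1, the array in which Arntl was also lowest of its group. Rora in control replicate 4 stood apart at 3.54, in a group whose whole range was 0.06 log2.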

How the results depend on the processing

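The alternatives were per-array median centring, a further quantile normalization, a filter on dim genes (mean above the median of all genes), the probe set of largest variance, every probe set tested alone, trend and robust options, array weights, only the 2 groups compared, a replicate block, and each array left out in turn. Hlf, Rorb, Arntl and the immediate early genes were added to them after the data were seen. At withdrawal against control, 1 clock gene passed with the dim filter (Tef, 0.61, adjusted p = 0.0463) and 0 to 1 with 1 array left out (Tef, without control replicate 2); every other alternative called 0 clock genes in all 6 comparisons.

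Counts over all genes moved more. At withdrawal against control, 921 genes passed, 524 with only the 2 groups and 544 with the replicate block. At day 3 against withdrawal it was 483, then 161 and 257, and at day 7 against withdrawal 404, then 154 and 221, with 622 under the dim filter. At day 3 against control, 28 became 53 with centring, 72 with the dim filter, 91 with trend and robust, 9 with the 2 groups and 4 with the block. At day 7 against control, 4 became 2 with trend and robust and 0 with the 2 groups or the block. Between the recovery days, 0 became 3 with the dim filter and 2 with array weights. Leaving out 1 array gave 459 to 774, 209 to 389, 200 to 415, 6 to 27, 0 to 9 and 0 to 7 genes for withdrawal against control, day 3 and day 7 against withdrawal, day 3 and day 7 against control, and day 7 against day 3. The cause was not tested, except that the 2-group and left-out fits use fewer samples and the dim filter tests fewer genes. At withdrawal against control the all-gene median shifted by -0.11 under centring, which turned the split of higher to lower calls from 534 and 387 to 341 and 853, and quantile normalization to 421 and 462. The split at day 7 against withdrawal went from 210 and 194 to 391 and 134 with centring, and at day 3 against control from 19 and 9 to 18 and 35 with centring and 12 and 11 with quantile normalization.

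Differences that turned sign passed in no fit; in the reported fit the largest of them was -0.364, for Npas2 between the recovery days. Nr1d2 at day 3 against withdrawal became 0.023 with centring, 0.009 with quantile normalization and 0.006 with the replicate block. Clock between the recovery days became 0.027 with centring. Nr1d1 at day 3 against withdrawal became -0.007 with quantile normalization, and Cry2 became -0.048 with array weights and -0.006 with the block. Over fits without 1 array, day 3 against withdrawal ran from -0.002 to 0.155 for Clock, -0.153 to 0.131 for Cry2, -0.099 to 0.3 for Npas2, -0.164 to 0.141 for Nr1d1 and -0.101 to 0.042 for Nr1d2. Day 7 against withdrawal ran from -0.011 to 0.109 for Clock, -0.055 to 0.192 for Cry2 and -0.522 to 0.159 for Npas2. Day 3 against control ran from -0.234 to 0.051 for Cry1, -0.001 to 0.283 for Cry2, -0.117 to 0.331 for Per3 and -0.054 to 0.201 for Tef. Day 7 against day 3 ran from -0.113 to 0.042 for Clock, -0.3 to 0.016 for Cry1, -0.093 to 0.191 for Cry2 and -0.662 to 0.019 for Npas2. The median percentile of the members' spread ran from 83.0 to 86.9 and the median size of their correlation from 0.36 to 0.58. Of 21 same-numbered pairs, 0 correlated above 0.1, which gives no sign of pairing but cannot exclude it. The replicate block changed no call on a clock gene of the set. The Rorb call was lost with the largest-variance probe set (adjusted p = 0.0515), every probe set alone (0.051), centring (0.0797), quantile normalization (0.058), trend and robust (0.0536), the 2 groups (0.0788) and the block (0.0979). The Klf6 call was lost with centring (0.0568), the 2 groups (0.12) and the block (0.0672), and the fall of Klf2 with trend and robust (0.0521), the 2 groups (0.156) and the block (0.0683). Values of Rorb, Arntl2 and the second Tef probe set at the floor carry little information.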
